A study of Mus musculus with 42 samples.

Results

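Growth factors and the receptors of the colony-stimulating factors were followed by RNA-seq through the responses of bone-marrow-derived macrophages (BMDM) to bacterial lipopolysaccharide (LPS) and to palmitate. The 10 genes, chosen by name, were the growth factors Igf1, Vegfa, Hbegf and Pdgfb, the colony-stimulating factors Csf1 and Csf3, and the receptor genes Csf1r, Csf2ra, Csf2rb and Csf3r. All 10 had a row among the 37310 genes of the count table, and 9 passed the filter on low counts. Csf3 did not pass it and is given by its counts.

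The macrophages were grown in culture from the marrow of mice labelled KO or WT. Per the study's methods, the mice labelled KO carried floxed Irf5 alleles and a Cre recombinase driven from the Lyz2 (LysM) locus, which deletes the gene in myeloid cells. The series' design text gives those labelled WT as littermates without the deletion. Each label had 7 conditions, namely Control cells at the start and after 2 h and 24 h, and cells given palmitate or LPS for 2 h or 24 h, with 3 libraries in each of the 14 groups and 42 libraries in all. All groups shared the differentiation in medium conditioned by L929 cells, a mouse fibroblast line that secretes the CSF-1 protein, so cellular Csf1 mRNA was measured in cells that received the protein from outside. Per the study's methods the mice were male, and their age at the start was 7 to 10 weeks. Whether the 3 libraries of a group came from separate animals or cultures is not given in the sources used here, so p-values measure the spread between these libraries, which may be technical.

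Total counts lay between 2848793 and 7743442 per library, and levels are given as CPM (counts scaled to library size, with TMM factors), on which 3 counts stand for 0.387 to 1.05 CPM. Irf5 was not lower under the label KO. Its level was 209.3 to 388.5 CPM in the libraries labelled WT and 266.7 to 429.8 CPM in those labelled KO, and it was called higher under KO in 4 of the 7 conditions. Which exons the floxed alleles lose is not given in the sources used here, and a count per gene does not separate exons, so the label is used as a label only ("libraries labelled KO"). Lyz2, the locus that carries Cre, was lower in the libraries labelled KO in all 7 conditions (log2 difference -0.51 to -1.11). The 6 macrophage markers were present in all groups and summed to 3210 to 6208 CPM. Markers of B cells reached 5.21 CPM and those of T or NK cells 1.90 CPM in sum. The fibroblast list (Col1a1, Col1a2, Col3a1, Dcn, Lum and Pdgfra) summed to over 30 CPM in 15 libraries, of which 12 were labelled KO and 3 WT. Most of that signal was Col1a1, with up to 1296 counts, whereas Dcn and Pdgfra never exceeded 5 counts and Lum never exceeded 1. The granulocyte list summed to 69.3 to 614 CPM. In bulk RNA, fewer cells of a type and less RNA per cell cannot be told apart.

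Macrophages depend on CSF-1 acting through its receptor CSF1R for survival and growth, and they answer to GM-CSF through a receptor made of CSF2RA and the shared beta chain CSF2RB, and to G-CSF (the product of Csf3) through CSF3R. They are also a source of growth factors that act on other cells. IGF-1 is a growth and survival factor for many tissues, VEGF-A drives the growth of blood vessels, PDGF-B recruits pericytes and smooth muscle cells, and HB-EGF is a ligand of the EGF receptor that is shed from the cell surface. LPS acts through Toll-like receptor 4, whose downstream factors include NF-kappaB, AP-1 and interferon regulatory factors.

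Promoter windows from RefSeq (GRCm38.p6, 250 bases that end just before a start listed there) were found for 5 of the 10 genes. Such a start can differ from the gene start in GENCODE. The Igf1 window lies inside the gene, which begins at 87858265, and the Csf3r window runs past its gene's start at 126024550. Windows are shown for 4 genes whose levels changed under LPS (Csf1, Csf3r, Igf1 and Vegfa). Csf2ra changed under LPS as well, and its window is not shown. Sequences run 5′ to 3′ on the gene's strand in lower case, and capitals mark a motif found on either strand. The Csf1 window is chr3:107760470-107760719 (minus strand), the Csf3r window chr4:126024409-126024658 (plus strand), the Igf1 window chr10:87860861-87861110 (plus strand) and the Vegfa window chr17:46032378-46032627 (minus strand).
Csf1: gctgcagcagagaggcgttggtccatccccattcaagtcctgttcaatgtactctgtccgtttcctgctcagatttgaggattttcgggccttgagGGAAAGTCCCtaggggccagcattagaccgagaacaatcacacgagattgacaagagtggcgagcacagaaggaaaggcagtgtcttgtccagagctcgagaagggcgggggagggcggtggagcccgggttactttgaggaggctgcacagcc
Csf3r: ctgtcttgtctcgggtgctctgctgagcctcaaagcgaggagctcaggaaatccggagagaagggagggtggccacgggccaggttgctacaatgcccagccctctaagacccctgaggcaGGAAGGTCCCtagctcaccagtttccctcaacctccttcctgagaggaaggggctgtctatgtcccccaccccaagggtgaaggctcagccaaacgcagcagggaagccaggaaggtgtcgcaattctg
Igf1: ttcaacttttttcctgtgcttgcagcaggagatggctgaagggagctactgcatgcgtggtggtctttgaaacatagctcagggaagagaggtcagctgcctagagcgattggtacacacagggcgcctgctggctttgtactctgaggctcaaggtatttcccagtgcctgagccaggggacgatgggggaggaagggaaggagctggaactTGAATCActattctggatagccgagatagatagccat
Vegfa: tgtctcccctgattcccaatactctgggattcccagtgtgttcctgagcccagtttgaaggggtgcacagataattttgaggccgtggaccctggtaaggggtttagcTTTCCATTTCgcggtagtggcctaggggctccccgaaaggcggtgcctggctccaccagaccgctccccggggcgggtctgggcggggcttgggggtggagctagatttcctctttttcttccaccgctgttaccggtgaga

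The capitals in the Csf1 window, at 154 to 145 bases before the start, and in the Csf3r window, at 129 to 120 bases, match the kappa-B pattern GGGNNNTTCC read on the other strand, which 4.65% of the 32851 promoter windows hold. In the Igf1 window they match the AP-1 pattern TGANTCA (6.75% of windows), at 37 to 31 bases before the RefSeq start, which lies inside the gene. In the Vegfa window they match the interferon-stimulated response element pattern GAAANNGAAA on the other strand (2.98% of windows), at 142 to 133 bases. The cyclic AMP response element TGACGTCA (1.55%), the hypoxia response element core ACGTG (16.6%), the C/EBP pattern TTGCNNAA (9.56%) and the TATA box TATAAA (12.4%) were searched too and had no match in these 4 windows. A match describes the letters and says nothing of binding. A second Vegfa window (chr17:46025164-46025413, minus strand), which lies inside the gene and not at its annotated start, held the hypoxia core. The Csf2ra window held that core and the cyclic AMP element.

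Per kilobase of exon, which allows levels of different genes to be set side by side, the 10 genes spanned a wide range in untreated cells. In WT Control at 0 h, Csf1r led at 285 ± 3.73 CPM per kb (SD, n = 3 for each value given here), followed by Igf1 at 108 ± 4.16 CPM per kb. Csf2ra (40.3 ± 1.74), Csf2rb (31.9 ± 1.19) and Csf3r (27.6 ± 1.74 CPM per kb) formed the middle of the order. Vegfa (16.9 ± 0.599) and Pdgfb (6.83 ± 0.811 CPM per kb) were lower, and Csf1 (0.117 ± 0.0762) and Hbegf (0.0667 ± 0.0360 CPM per kb) were low and not separated beyond their spread. Csf3 had no count. The receptor of CSF-1 was therefore the most abundant of the 10 transcripts while its ligand was close to the detection floor.

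After LPS the order changed. At 2 h in WT, Pdgfb reached 37.2 ± 1.95 and Vegfa 39.1 ± 7.84 CPM per kb, levels that stood among those of Csf2rb (55.6 ± 5.09), Csf2ra (45.6 ± 5.43) and Csf3r (35.1 ± 1.55 CPM per kb), with no neighbours in this stretch separated beyond their spread. At 24 h in WT, Igf1 had dropped from the second place to the fifth, at 29.1 ± 1.66 CPM per kb, below Csf2ra (68.9 ± 5.38), Csf2rb (66.5 ± 6.99) and Csf3r (42.6 ± 6.77 CPM per kb), and Csf2ra and Csf2rb were not separated from each other.

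**Figure D1:**
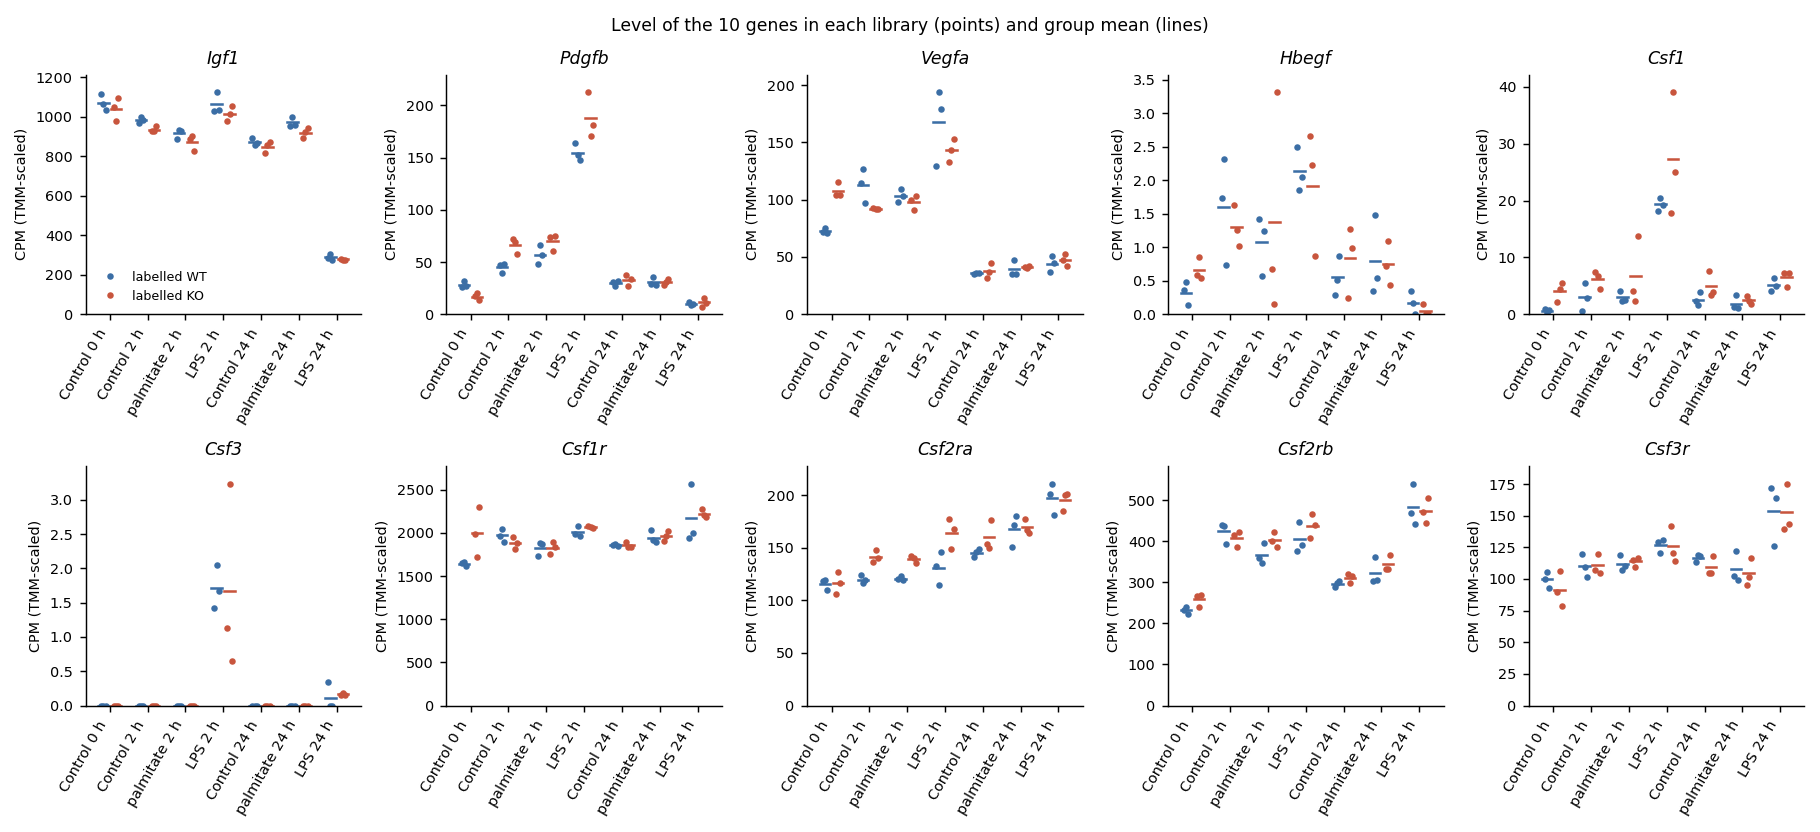
Level of each of the 10 genes in CPM (vertical axes, each from 0 and on its own scale) in every library (points) and as the group mean (lines), by condition (horizontal axis), with libraries labelled WT in blue and KO in red. Igf1 drops to 274.9 to 306.7 CPM in the 6 libraries of LPS 24 h, Pdgfb peaks at LPS 2 h and is lowest at LPS 24 h, and Csf3 counts appear under LPS only.

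The first question was how LPS moved these genes at 2 and 24 h relative to Control of the same time and label. At 2 h, 3 of the 9 tested genes rose in WT and 4 in KO, none fell, and growth factor ligands led (Csf1, Pdgfb, Vegfa). Genes were called by edgeR's quasi-likelihood test at a Benjamini-Hochberg adjusted p under 0.05 over 11624 genes, where 23.1% of all genes were called in WT and 23.9% in KO. At 24 h, 6 of the 9 were called in WT and 7 in KO, against 39.5% and 40.9% of all genes. The receptors rose then, and Igf1 and Pdgfb fell. The response markers Tnf, Il6, Nos2 and Acod1 rose at both times in both labels. With 3 libraries against 3, an exact permutation test of 1 gene cannot go below p = 0.10, so each call rests on the fit across all genes.

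Igf1, which encodes insulin-like growth factor 1, was the second most abundant of the 10 genes and fell about as far in both labels after 24 h of LPS. In WT it stood at 894, 859 and 869.9 CPM in Control 24 h and at 283, 307 and 275 CPM in LPS 24 h. In KO the values were 817, 858 and 871 CPM in Control 24 h and 282, 276 and 276 CPM in LPS 24 h. The 6 libraries of LPS 24 h lay within 274.9 to 306.7 CPM, and the 36 others within 817.3 to 1125 CPM, with no overlap. The log2 fold change was -1.60 ± 0.05 (SE) in WT (edgeR adjusted p = 7.1e-30, 3.03-fold lower) and -1.61 ± 0.05 in KO (adjusted p = 4.3e-30, 3.05-fold lower). At 2 h no fall was seen. LPS 2 h libraries held 979 to 1125 CPM, the WT log2 fold change was 0.11 ± 0.05 (edgeR adjusted p = 0.12), and the change from the 2 h effect to the 24 h effect was -1.72 ± 0.05 (edgeR adjusted p = 2.8e-31).

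Pdgfb, which encodes the PDGF-B chain, changed in both directions, up at 2 h and down at 24 h. In WT it stood at 47.0, 39.8 and 48.4 CPM in Control 2 h and at 164, 152 and 148 CPM in LPS 2 h. In KO it stood at 72.5, 69.0 and 58.1 CPM in Control 2 h and at 213, 170.4 and 182 CPM in LPS 2 h. All 6 libraries with LPS lay above all 6 of Control, by 3.42-fold in WT (log2 1.77 ± 0.13, edgeR adjusted p = 1.1e-16) and 2.81-fold in KO (log2 1.49 ± 0.12, edgeR adjusted p = 1.2e-14). At 24 h the order was turned round. WT libraries held 30.8, 27.1 and 31.4 CPM in Control and 11.3, 9.09 and 9.48 CPM with LPS, and KO libraries held 37.7, 27.3 and 33.4 CPM in Control and 7.30, 15.3 and 11.1 CPM with LPS. No LPS 24 h library reached the lowest Control 24 h library. The fall was 2.99-fold in WT (log2 -1.58 ± 0.18, edgeR adjusted p = 1.8e-10) and 2.95-fold in KO (log2 -1.56 ± 0.17, edgeR adjusted p = 8.7e-11). The effect at 24 h differed from that at 2 h by -3.20 ± 0.15 on the log2 scale (edgeR adjusted p = 8.9e-24).

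Vegfa rose less, and at 2 h. WT libraries held 115, 127 and 97.4 CPM in Control 2 h and 129.7, 194 and 179 CPM with LPS, and KO libraries held 92.5, 92.3 and 91.7 CPM in Control and 133, 144 and 153 CPM with LPS. The groups did not overlap, but WT library 1 with LPS stood only just above the highest Control. The rise was 1.501-fold in WT (log2 0.59 ± 0.11, edgeR adjusted p = 1.7e-05) and 1.56-fold in KO (log2 0.64 ± 0.11, edgeR adjusted p = 5.3e-06). At 24 h all groups had fallen, to 35.3, 36.1 and 35.9 CPM in WT Control and 36.6, 50.8 and 44.7 CPM in WT with LPS. The log2 fold change at 24 h was 0.30 ± 0.13 in both labels (edgeR adjusted p = 0.067 in WT and 0.056 in KO), short of the threshold. Some alternatives called it in each label. With all genes tested the edgeR adjusted p was 0.042 in WT and 0.033 in KO. Without WT LPS 24 h library 1 the WT value was 0.41 (edgeR adjusted p = 0.015). DESeq2 called it in KO (log2 0.30, adjusted p = 0.048).

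Csf1, the ligand of CSF1R and the growth factor that BMDM cultures depend on, was a low transcript that rose at 2 h. WT libraries held 0.580, 5.45 and 2.81 CPM in Control 2 h and 18.2, 20.5 and 19.3 CPM with LPS. KO libraries held 7.41, 6.79 and 4.41 CPM in Control and 17.8, 39.1 and 25.1 CPM with LPS. Every LPS 2 h library lay above every library without LPS, of which the highest was 13.8 CPM. The rise was 6.38-fold in WT (log2 2.67 ± 0.44, edgeR adjusted p = 3.1e-06) and 4.48-fold in KO (log2 2.16 ± 0.40, edgeR adjusted p = 2.2e-05). The summed counts behind it were 255 against 55 in WT and 356 against 105 in KO, with ratios per depth of 6.38 (95% exact counting interval 4.75 to 8.71) and 4.73 (3.79 to 5.94). Such intervals cover counting error only. At 24 h the LPS libraries held 4.10, 6.45 and 4.89 CPM in WT and 7.30, 4.85 and 7.31 CPM in KO. That was a log2 difference from Control 24 h of 0.95 ± 0.50 in WT (edgeR adjusted p = 0.13) and 0.43 ± 0.45 in KO (edgeR adjusted p = 0.47).

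In every group except WT LPS 2 h and KO LPS 24 h, the library with the most fibroblast markers also had the most Csf1. In some of these groups the markers were almost absent, as in WT Control 0 h (0.529 to 0.904 CPM). Within KO LPS 2 h, library 2 had 152 CPM of these markers and the highest Csf1 of all 42 libraries (39.1 CPM), while libraries 1 and 3 had 0.758 and 3.02 CPM of them. Within KO palmitate 2 h, library 3 had 305 CPM of the markers and 13.8 CPM of Csf1, against 17.9 and 0.776 CPM of the markers and 4.01 and 2.33 CPM of Csf1 in libraries 1 and 2. Not every group ordered its libraries alike by both measures. KO LPS 24 h libraries 1 and 3 held 175 and 12.7 CPM of the markers with 7.30 and 7.31 CPM of Csf1, and KO Control 0 h library 1 held more of them than library 2 (47.6 and 42.1 CPM) with less Csf1 (2.16 and 4.45 CPM). In WT at 2 h the LPS libraries held 0.371 to 0.715 CPM of these markers and the Control libraries 1.16 to 58.7 CPM. Which cells the Csf1 counts came from was not tested. With the log of the marker sum as a covariate, an alternative chosen after the data were seen, Csf1 at LPS 24 h was called in WT (log2 1.55 ± 0.37, edgeR adjusted p = 0.00056) and in KO (log2 0.85 ± 0.32, edgeR adjusted p = 0.030). In WT it was also called with all genes tested (log2 0.94, edgeR adjusted p = 0.032) and in a fit of only the libraries compared (log2 0.96, edgeR adjusted p = 0.048).

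**Figure D2:**
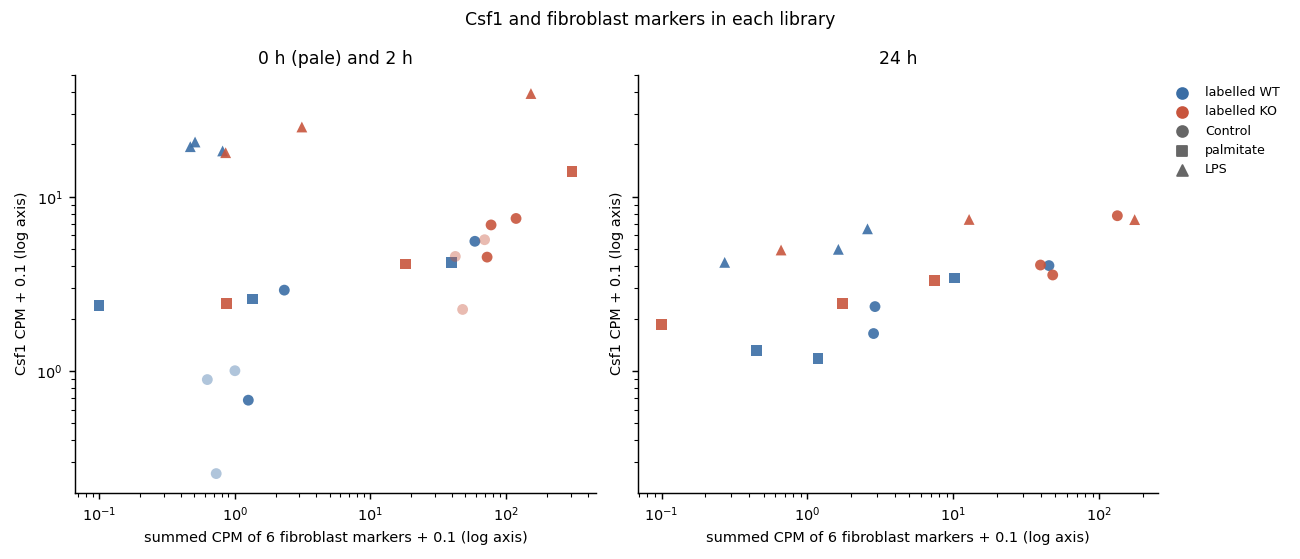
Csf1 level (vertical axis, CPM + 0.1, log scale) against the summed level of 6 fibroblast markers (horizontal axis, CPM + 0.1, log scale) in each library, at 0 h (pale) and 2 h on the left and at 24 h on the right, with the label by colour and the treatment by symbol. The LPS libraries of 2 h (triangles) lie highest, at 17.8 to 39.1 CPM, and the 3 WT ones among them hold under 1 CPM of the markers.

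Csf3, which encodes G-CSF, was at 0 counts in 32 of the 42 libraries, and none of the Control or palmitate libraries had a count. At LPS 2 h there were 4, 10 and 9 counts in the WT libraries and 3, 16 and 3 in the KO libraries, or 1.43, 2.05 and 1.67 CPM and 1.14, 3.24 and 0.648 CPM. The highest KO value was again library 2, which held 152 CPM of fibroblast markers, while the WT libraries held 0.371 to 0.715 CPM of them. At LPS 24 h there were 2, 0 and 0 counts in WT and 1 count in each KO library. Against a floor of 3 counts over the group, Csf3 was at least 10.6-fold higher in WT and at least 10.2-fold higher in KO at LPS 2 h than in Control 2 h. The groups at 0 allow up to 0.154 to 0.184 CPM. The alternative that keeps every gene with a count (25164 genes) holds Csf3 only through its LPS libraries. A test of Csf3 there would add nothing to these counts, so none is given.

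Hbegf was near the floor throughout, at 0 to 22 counts per library. LPS 2 h libraries had 7, 9 and 11 counts in WT and 7, 11 and 4 in KO, against 9, 14 and 5 and 9, 7 and 6 in Control 2 h. The summed ratio per depth was 1.33 (95% exact counting interval 0.753 to 2.34) in WT and 1.39 (0.737 to 2.64) in KO, so a change at 2 h was not detectable at this depth. At 24 h the Control libraries had 1, 3 and 6 counts in WT and 1, 7 and 7 in KO, and the LPS libraries had 2, 1 and 0 in WT and 1, 0 and 0 in KO. The fall was called in KO (log2 -3.60 ± 1.14, edgeR adjusted p = 0.0091, ratio 0.0585 with a counting interval of 0.00139 to 0.380), on 1 count against 15, and not in WT (log2 -1.75 ± 1.03, edgeR adjusted p = 0.18, ratio 0.265 with an interval of 0.0469 to 1.03), on 3 against 10. The test of the difference between the labels did not pass (edgeR adjusted p = 0.97). The highest Hbegf value outside LPS, 3.31 CPM in KO palmitate 2 h library 3, was in the library with 305 CPM of fibroblast markers.

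The 4 receptor genes were all higher at 24 h of LPS, by at most 1.63-fold. Csf2rb, the shared signalling chain of the GM-CSF, IL-3 and IL-5 receptors, stood at 289, 298 and 302 CPM in WT Control 24 h and at 468, 541 and 443 CPM with LPS, and at 321, 297 and 316 CPM in KO Control 24 h and 471, 445 and 505 CPM with LPS. The groups were far apart in both labels, and the rise was 1.63-fold in WT (log2 0.71 ± 0.07, edgeR adjusted p = 1.7e-11) and 1.52-fold in KO (log2 0.61 ± 0.07, edgeR adjusted p = 1.1e-09). Its paralog Csf2rb2, which also passed in WT (log2 0.44 ± 0.08) and in KO (log2 0.30 ± 0.08), shares 6.96% of the 100-base stretches of the longest Csf2rb transcript, so some reads could be assigned to either.

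Csf2ra, the GM-CSF-binding chain, stood at 141, 146 and 149 CPM in WT Control 24 h and at 201, 211 and 181 CPM with LPS (log2 0.44 ± 0.08, edgeR adjusted p = 4.7e-06). In KO it stood at 153, 150.2 and 177 CPM in Control and 185, 201 and 201 CPM with LPS (log2 0.28 ± 0.08, edgeR adjusted p = 0.0022). At 2 h it was called in KO (log2 0.21 ± 0.08, edgeR adjusted p = 0.046), a call that was lost in 7 alternatives, 4 of them without a single library (KO Control libraries 1 or 3, KO LPS libraries 1 or 3), with values of 0.15 to 0.20. Csf3r, the G-CSF receptor, stood at 113, 119 and 118 CPM in WT Control 24 h and 171, 126 and 164 CPM with LPS (log2 0.40 ± 0.10, edgeR adjusted p = 0.0010), and at 105, 105 and 118 CPM in KO Control and 139, 175 and 143 CPM with LPS (log2 0.47 ± 0.10, edgeR adjusted p = 0.00011). The granulocyte list, whose cells carry CSF3R, summed to 149.7 to 156 CPM in WT Control 24 h and 424 to 614 CPM with LPS, and to 236 to 321 CPM and 400 to 489 CPM in KO. Most of the sum with LPS was Lcn2, which macrophages given LPS also make, at 306 to 420.3 CPM in WT and 275 to 336 CPM in KO. The other 11 genes of the list summed to 142 to 152 CPM in WT Control 24 h and 118 to 194 CPM with LPS, and to 226 to 299.8 CPM and 124 to 153 CPM in KO.

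Csf1r, the receptor of CSF-1, stood at 1859, 1876 and 1853 CPM in WT Control 24 h and at 1943, 2573 and 1999 CPM with LPS. In KO it stood at 1896, 1837 and 1840 CPM in Control and at 2277, 2207 and 2189 CPM with LPS. The log2 fold change was 0.22 ± 0.07 in WT (edgeR adjusted p = 0.0083) and 0.26 ± 0.07 in KO (edgeR adjusted p = 0.0018). The WT call rested on LPS 24 h library 2, since without it the value was 0.08 (edgeR adjusted p = 0.35). Csf1r overlaps Hmgxb3 on the other strand over 873 exon bases, and whether counting used strand is not given in the sources used here. The median count of Hmgxb3 was 211, against 10643.5 for Csf1r.

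**Figure D3:**
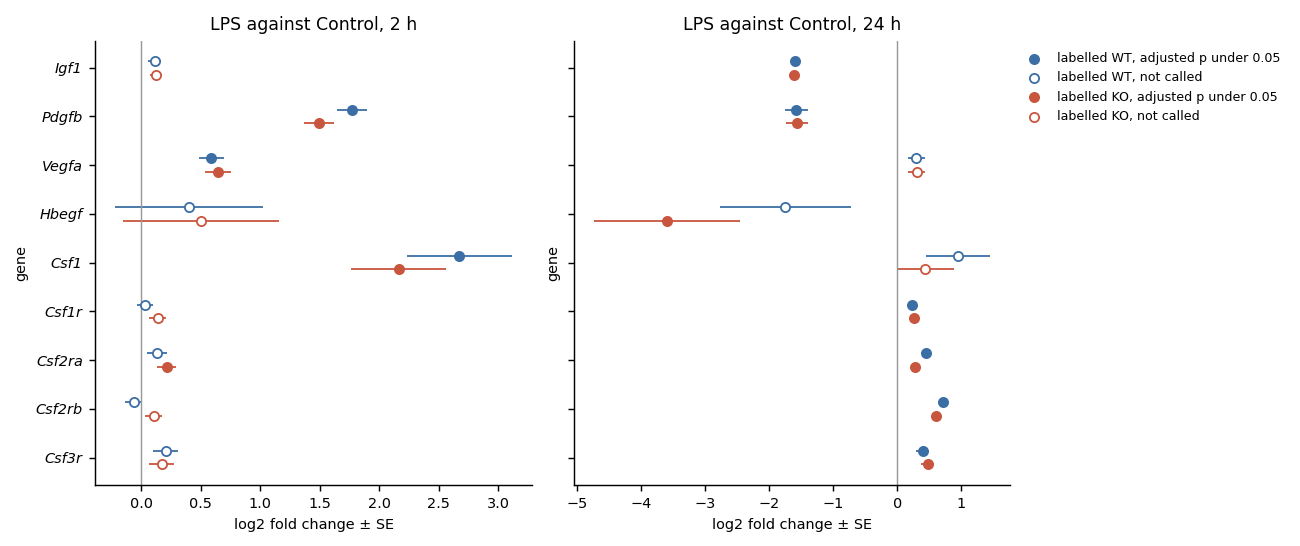
Log2 fold change (horizontal axis, ± SE) of LPS against Control at 2 h (left) and 24 h (right) for the 9 tested genes (vertical axis), in blue for libraries labelled WT and red for KO, filled where the edgeR adjusted p was under 0.05. Csf1, Pdgfb and Vegfa rise at 2 h, and at 24 h Igf1 and Pdgfb lie near -1.6 in both labels while the 4 receptors lie between 0.22 and 0.71.

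The effect of LPS at 24 h differed from that at 2 h for 8 of the 9 genes, by the test of the difference over both labels, where 46.3% of all genes did. It was lower at 24 h for the 5 growth and colony-stimulating factors tested and higher for Csf2ra, Csf2rb and Csf3r. The Vegfa, Csf2ra and Csf3r calls were lost without any 1 of 5, 11 and 12 libraries, and that of Csf2ra also with all genes tested (0.20, edgeR adjusted p = 0.062).

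Next, the LPS effect was compared between the labels. None of the 9 genes passed the test of the difference at 2 h or at 24 h, where 0% and 0.0086% of all genes did, and none had an unadjusted p under 0.05 or a call by DESeq2. For Igf1 the difference of the 24 h effects, KO minus WT, was -0.01 ± 0.07 on the log2 scale, for Vegfa 0.00 ± 0.18 and for Csf2ra -0.16 ± 0.11. For Csf1, where counts were low, it was -0.51 ± 0.60 at 2 h and -0.51 ± 0.67 at 24 h, with SEs too wide to resolve a difference of that size.

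Palmitate, the saturated fatty acid with which the study loaded the cells with lipid, gave no call for the 9 tested genes at 2 h or 24 h in either label. The share of all genes called was 0.275% and 0.852% in WT and 0.112% and 0.877% in KO. Over the 4 comparisons, 6 values had an unadjusted p under 0.05, and DESeq2 called 0. The treatment itself was visible, since 3 of 3 tested markers of fatty acid handling (Plin2, Angptl4 and Cpt1a) rose at 24 h in both labels. Pdk4, also on that list, never exceeded 8 counts and was not tested. Igf1 in WT read 886.6, 935 and 928 CPM at 2 h of palmitate, below the 971 to 999 CPM of Control, and 955, 1000.3 and 960.3 CPM at 24 h, above the 859 to 894 CPM of Control. Its log2 fold changes were -0.10 ± 0.05 (edgeR adjusted p = 0.66) and 0.15 ± 0.05 (edgeR adjusted p = 0.20). The change between the effect at 2 h and at 24 h, taken over both labels, passed the test at 0.24 ± 0.05 (edgeR adjusted p = 0.0067), where 1.28% of all genes did. Csf2rb had a 2 h value of -0.21 ± 0.07 in WT (edgeR adjusted p = 0.41) and Pdgfb one of 0.34 ± 0.13 (edgeR adjusted p = 0.51), neither past the threshold.

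The study's own question was the comparison of KO with WT. At Control 0 h, Csf1, Csf1r and Vegfa were higher and Pdgfb lower in the libraries labelled KO, so 4 of the 9 tested genes were called, against 12.5% of all genes. In the other 6 conditions 1 call was made, for Pdgfb at Control 2 h. Irf5 itself was not lower under the label KO in any condition, as given above.

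Pdgfb at Control 0 h stood at 25.7, 32.2 and 27.4 CPM in WT and 17.1, 20.01 and 13.5 CPM in KO, without overlap (1.68-fold lower, log2 -0.75 ± 0.16, edgeR adjusted p = 0.0013). At Control 2 h the direction was opposite, with 47.0, 39.8 and 48.4 CPM in WT and 72.5, 69.0 and 58.1 CPM in KO (1.47-fold higher, log2 0.56 ± 0.13, edgeR adjusted p = 0.031), against 0.49% of all genes called. The 2 h call was lost without any 1 of 4 libraries, WT libraries 1 (0.59) and 2 (0.48) and KO libraries 1 (0.49) and 2 (0.53). The difference between the label effects at 2 h and 0 h was 1.31 ± 0.21 (edgeR adjusted p = 5.9e-05), where 4.77% of all genes passed, and between 24 h and 0 h it was 0.88 ± 0.22 (edgeR adjusted p = 0.024), the 1 gene of the 9 called where 1.83% of all genes passed. Vegfa at Control 0 h stood at 71.4, 75.5 and 70.8 CPM in WT and 104, 115 and 104 CPM in KO (1.49-fold higher, log2 0.57 ± 0.11, edgeR adjusted p = 0.00028). At Control 2 h the WT libraries were the higher ones, with 97.4 to 127 CPM against 91.7 to 92.5 CPM, a log2 difference of -0.29 ± 0.11 that did not pass (edgeR adjusted p = 0.28). The change of the Vegfa label difference from 0 h to 2 h was -0.87 ± 0.15 (edgeR adjusted p = 0.00030).

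Csf1 at Control 0 h had 5, 1 and 6 counts in WT and 11, 26 and 31 in KO, or 0.904, 0.158 and 0.793 CPM against 2.16, 4.45 and 5.57 CPM (6.44-fold, log2 2.69 ± 0.66, edgeR adjusted p = 0.0043). The same KO libraries held 42.1 to 69.2 CPM of fibroblast markers and the WT libraries 0.529 to 0.904 CPM. Of the 6 markers listed, the 3 tested were called higher in KO. Dcn, Lum and Pdgfra never exceeded 5 counts and were not tested. The filter kept the tested markers through libraries where they are high, so their calls are no separate evidence. With the marker sum as a covariate the Csf1 difference was 1.49 ± 0.53 and the call was lost (edgeR adjusted p = 0.075). The marker sums of the labels do not overlap at Control 0 h, so the adjustment leans on other groups. In this comparison label and marker content cannot be told apart. In the other 6 conditions the log2 difference of Csf1 was 0.34 to 1.19 and was not called. At palmitate 2 h it was called with all genes tested (log2 1.20 ± 0.31, edgeR adjusted p = 0.028). Csf1r at Control 0 h stood at 1651, 1663 and 1621 CPM in WT and 1984, 1720.0 and 2301 CPM in KO (log2 0.28 ± 0.07, edgeR adjusted p = 0.0040), and without KO library 3 the value was 0.17 (edgeR adjusted p = 0.13).

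Igf1, Csf2ra, Csf2rb, Csf3r and Hbegf were not called between the labels in any condition. For Igf1 the log2 difference lay between -0.08 and -0.04 in all 7. Csf2ra at LPS 2 h came nearest, at 133, 114.6 and 146 CPM in WT and 177, 149 and 168 CPM in KO (log2 0.32 ± 0.08, edgeR adjusted p = 0.055), and DESeq2 called it (log2 0.33, adjusted p = 0.031). The share of all genes called was 0.146% at palmitate 2 h, 0.465% at LPS 2 h, 0.12% at Control 24 h, 0.0688% at palmitate 24 h and 0.146% at LPS 24 h. Over these 5 conditions without a call, 6 values had an unadjusted p under 0.05 and DESeq2 called 1.

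**Figure D4:**
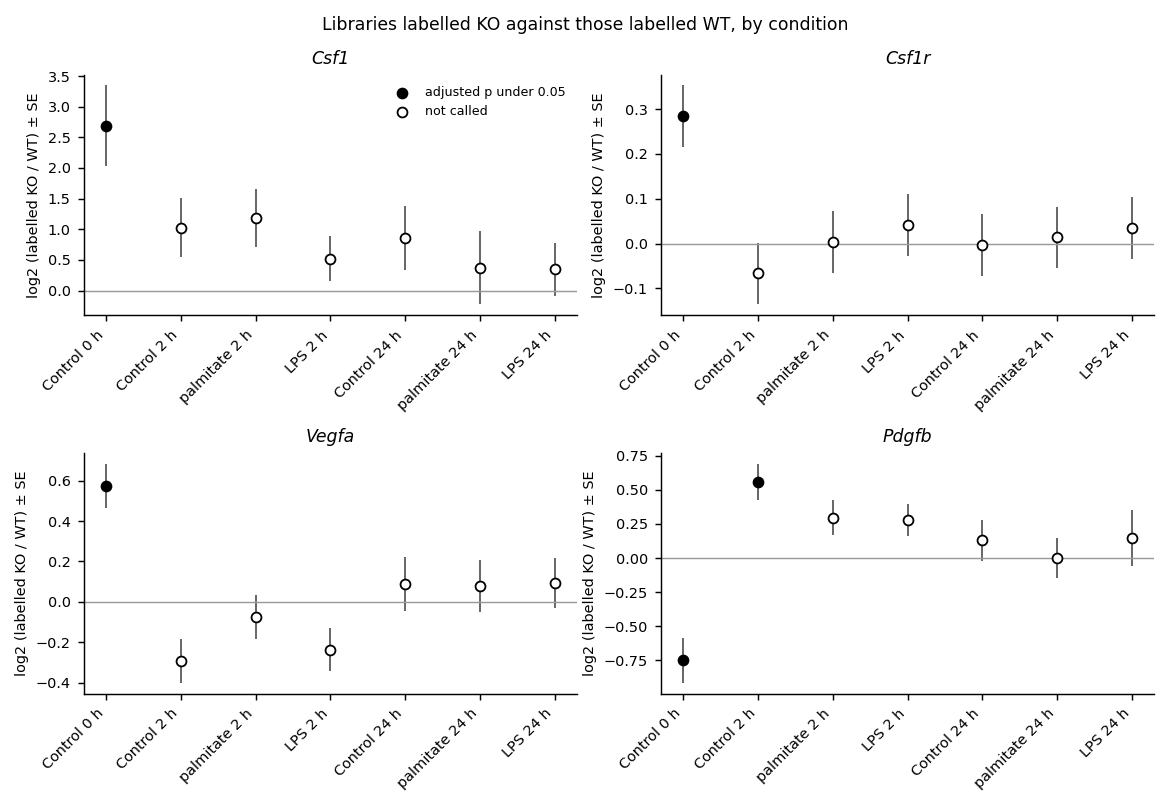
Log2 difference (vertical axes, ± SE) of libraries labelled KO against those labelled WT in each of the 7 conditions (horizontal axis) for Csf1, Csf1r, Vegfa and Pdgfb, filled where the edgeR adjusted p was under 0.05. The filled points are at Control 0 h in all 4 panels and, for Pdgfb, also at Control 2 h with the opposite sign (-0.75 and 0.56).

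Untreated cells changed with time as well, and these shifts set the baseline for the LPS comparisons. Over both labels, 7 of the 9 tested genes differed between Control 2 h and Control 0 h (16.7% of all genes did) and 6 between Control 24 h and 0 h (16.5%). For Pdgfb, the mean over both labels was 2.498-fold above 0 h at 2 h (log2 1.32 ± 0.10, edgeR adjusted p = 7.3e-15) and 1.42-fold above it at 24 h (log2 0.51 ± 0.11, edgeR adjusted p = 0.00071), and the labels differed in this, by the tests of the label difference given above. In WT it went from 25.7 to 32.2 CPM at 0 h to 39.8 to 48.4 CPM at 2 h and 27.1 to 31.4 CPM at 24 h, which overlapped 0 h. In KO it went from 13.5 to 20.01 CPM at 0 h to 58.1 to 72.5 CPM at 2 h and 27.3 to 37.7 CPM at 24 h, without overlap with 0 h. Csf2rb rose 1.70-fold at 2 h, from 223 to 269 CPM at 0 h to 387 to 439.8 CPM (log2 0.77 ± 0.05, edgeR adjusted p = 4.6e-17), and stood at 289 to 321 CPM at 24 h (log2 0.31 ± 0.05, edgeR adjusted p = 1.2e-05). The Csf2rb level of Control 2 h overlapped that of LPS 2 h (377 to 468 CPM), and the LPS libraries stood apart from Control at 24 h, when Control was lower.

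Over both labels, Vegfa fell 2.39-fold from 0 h to 24 h in Control, from 70.8 to 115 CPM to 31.2 to 44.5 CPM (log2 -1.26 ± 0.09, edgeR adjusted p = 4.7e-16). WT libraries held 70.8 to 75.5 CPM at 0 h, 97.4 to 127 CPM at 2 h and 35.3 to 36.1 CPM at 24 h. KO libraries held 104 to 115, 91.7 to 92.5 and 31.2 to 44.5 CPM. The label difference in the change to 24 h was not called, but some alternatives called it (-0.49 with all genes tested, edgeR adjusted p = 0.041). Igf1 fell too, by 0.14 ± 0.04 at 2 h (edgeR adjusted p = 0.0044) and by 0.29 ± 0.04 at 24 h (edgeR adjusted p = 1.5e-08) on the log2 scale. Csf2ra was higher at 24 h (log2 0.40 ± 0.06, edgeR adjusted p = 3.4e-07), as was Csf3r (log2 0.25 ± 0.07, edgeR adjusted p = 0.013), though the Csf3r call was lost without KO Control 0 h library 3 (0.20, edgeR adjusted p = 0.069). At 2 h the calls of Csf1 (log2 1.42 ± 0.41, edgeR adjusted p = 0.011), Hbegf (1.60 ± 0.53, edgeR adjusted p = 0.030), Csf2ra (0.16 ± 0.06, edgeR adjusted p = 0.039) and Csf3r (0.21 ± 0.07, edgeR adjusted p = 0.039) each depended on single libraries. Csf1 read 1.05 without WT Control 2 h library 2 (edgeR adjusted p = 0.12), which held 58.7 CPM of fibroblast markers. The calls of the other 3 were lost without any 1 of 6 or 7 libraries, with values of 1.397 to 1.57 for Hbegf, 0.13 to 0.17 for Csf2ra and 0.16 to 0.21 for Csf3r.

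Partners of the same pathways, listed by family with earlier results of these data known, comprised 51 genes, of which 24 were tested. At LPS 2 h, 4 rose and 2 fell in WT, and 6 rose and 1 fell in KO, where 23.1% and 23.9% of all genes were called in either direction. At LPS 24 h, 4 rose and 10 fell in WT and 5 rose and 11 fell in KO, where 39.5% and 40.9% of all genes were called. The median log2 fold change of the 24 genes was -0.25 in WT and -0.35 in KO at 24 h, against -0.01 over all genes tested in either label. Palmitate gave no call among them in any of the 4 comparisons (edgeR), and KO against WT gave calls at Control 0 h only (4 higher and 2 lower), where 12.5% of all genes were called.

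Of the 6 tested IGF partners, 4 fell and none rose at LPS 24 h in WT, where 19.9% of all genes fell, namely the receptor Igf1r (log2 -1.75 ± 0.20), the adaptor Irs2 (-1.64 ± 0.21), the binding protein Igfbp4 (-1.40 ± 0.09) and Igf2r, which clears IGF-2 (-0.35 ± 0.06). The same 4 fell in KO, where 21% of all genes fell, with log2 fold changes of -1.81 for Igf1r, -2.10 for Irs2, -1.36 for Igfbp4 and -0.38 for Igf2r. At 2 h, Igfbp4 fell in WT (-0.35 ± 0.08), and in KO Igf1r (0.57 ± 0.17, edgeR adjusted p = 0.0087) and Igf2r (0.21 ± 0.06, edgeR adjusted p = 0.0048) rose and none fell.

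Among the VEGF genes, 4 were tested. The coreceptor Nrp1 fell at 24 h (log2 -1.44 ± 0.07 in WT and -1.55 ± 0.07 in KO), whereas the related coreceptor Nrp2 rose at 2 h (0.63 ± 0.06 in WT and 0.69 ± 0.06 in KO) and at 24 h (0.45 ± 0.06 and 0.55 ± 0.06). Vegfb, a second ligand, fell at 24 h (-1.24 ± 0.14 and -0.97 ± 0.13). For the EGF family, no ligand other than Hbegf exceeded 16 counts in a library (Areg), and genes of the shedding machinery were called. Rhbdf2, which escorts the protease ADAM17, rose at 2 h (1.14 ± 0.07 in WT and 1.27 ± 0.07 in KO) and at 24 h (0.84 ± 0.07 and 0.88 ± 0.07), Adam17 rose by 0.32 to 0.42 in the 4 comparisons, and Adam10 fell at 24 h (-0.65 ± 0.06 and -0.72 ± 0.06). Adam17 releases HB-EGF and other ligands from the cell surface.

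Of 3 PDGF genes tested, Pdgfa rose at 2 h in WT (log2 0.51 ± 0.14) and fell at 24 h (-0.67 ± 0.19 in WT and -0.83 ± 0.18 in KO), as Pdgfb did in both labels, while Pdgfc fell at 24 h (-1.39 ± 0.17 and -1.06 ± 0.16). At Control 0 h, Pdgfa was higher in KO (0.99 ± 0.17), opposite to Pdgfb. Of 5 haematopoietic factor genes tested, Kitl, the ligand of the stem cell factor receptor, fell at 24 h (-1.32 ± 0.40 and -2.24 ± 0.40), and Csf2rb2 rose as given above. Csf2, which encodes GM-CSF, never exceeded 5 counts in a library, and Il3 and Il34 had no count.

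**Figure D5:**
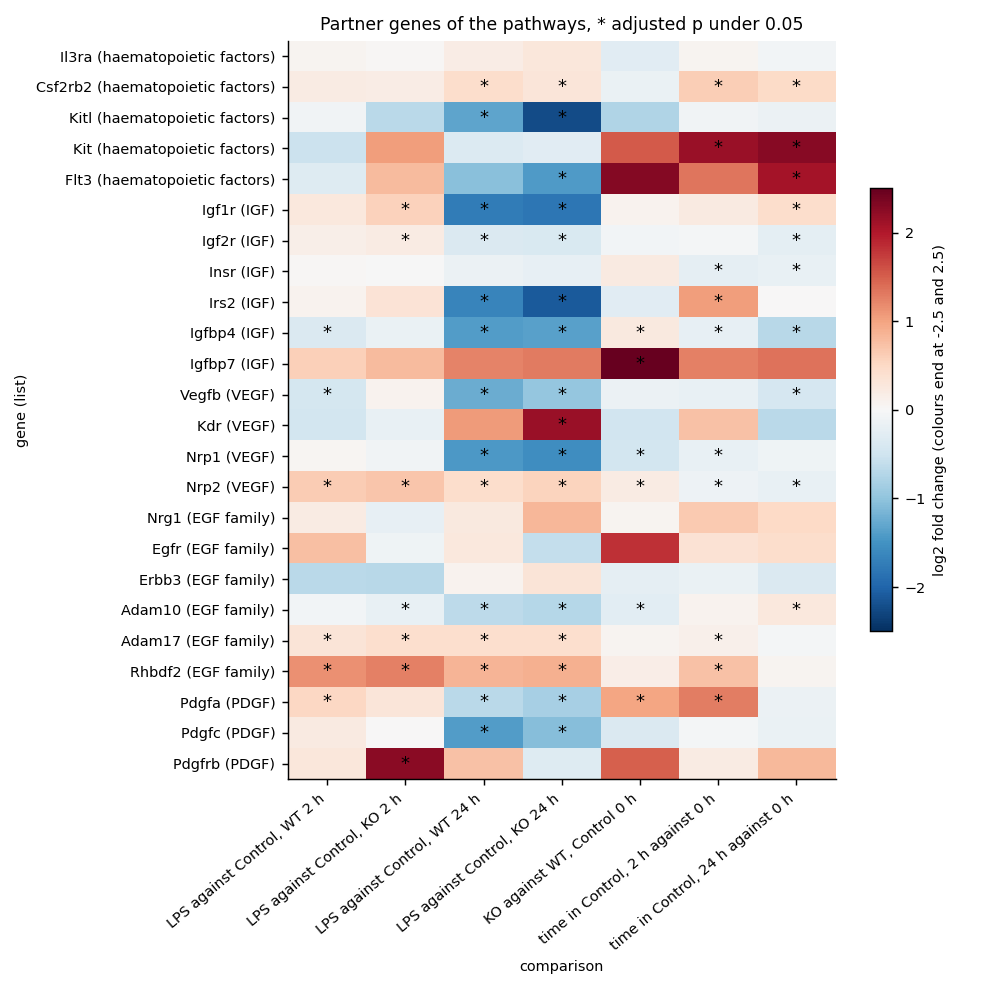
Log2 fold change (colour, blue below 0 and red above) of the tested partner genes of the IGF, VEGF, EGF, PDGF and haematopoietic factor pathways (rows) in the comparisons of LPS with Control, of KO with WT and of time (columns), with an asterisk where the edgeR adjusted p was under 0.05. The columns of LPS 24 h hold falls of Igf1r, Irs2, Igfbp4, Nrp1, Pdgfc and Vegfb in both labels, and the column of KO against WT at Control 0 h holds 6 marks.

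The genes whose group means were most alike, by Pearson's r of mean log2 CPM over the 14 groups among 11042 genes, are given as a description. For Igf1 they were Tfrc (r = 0.996), the transferrin receptor, Ephx1 (0.989) and Adcy3 (0.988). For Pdgfb they were Fzd1 (0.977), Dirc2 (0.974) and Dusp8 (0.973), for Vegfa Man1a (0.951), Appl2 (0.946) and Nr3c1 (0.921), and for Csf1 Zc3h7a (0.943), Med12 (0.942) and Nfat5 (0.931). For the receptors they were Itgb2 (0.935), Pdxdc1 (0.927) and Psmb3 (0.919) for Csf2ra, Dennd1c (0.906), Ifngr2 (0.901) and Csf2rb2 (0.898) for Csf2rb, Nr1h3 (0.965), Dst (0.953) and Fabp3 (0.944) for Csf3r, and Rbpms (0.900), Znf41-ps (0.893) and Cpne2 (0.892) for Csf1r. For Hbegf they were Kdm7a (0.971), Prrc2b (0.962) and Furin (0.958), the last a protease that processes many growth factor precursors. The means compared come from the same libraries, and no test was made.

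Positions of the 10 genes are given on GRCm38 (mm10), from GENCODE vM21. The growth factors are Igf1 at chr10:87858265-87937042 (plus strand), Vegfa at chr17:46016993-46032369 (minus), Pdgfb at chr15:79995874-80014977 (minus) and Hbegf at chr18:36504927-36515805 (minus). The colony-stimulating factors are Csf1 at chr3:107741048-107760469 (minus) and Csf3 at chr11:98701263-98703629 (plus). The receptors are Csf1r at chr18:61100598-61132149 (plus), Csf2ra at chr19:61223957-61228429 (minus), Csf2rb at chr15:78325752-78353847 (plus) and Csf3r at chr4:126024550-126044440 (plus).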

How the data were processed

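Raw read counts per gene for 42 libraries were deposited by the authors, who trimmed reads with fastp 0.19.11 and aligned them to mouse mm10 with STAR 2.7.3a, which also gave the counts (mm9 is named too in the submitters' processing notes, without a role). The libraries were stranded, ribodepleted total RNA, and the annotation release and strand setting are not given in the sources used here. The table's columns give the group alone, and library numbers are names given in column order. Of 37310 rows, 12146 held no count, and 32620 identifiers were matched to a symbol with GENCODE vM21. No 2 libraries of a group agreed within sampling noise (42 pairs, chi-square per degree of freedom 1.93 to 9.32).

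Counts were filtered with filterByExpr (11624 genes, 99.88% of counts), scaled by TMM and fitted in R 4.3.3 with edgeR 4.0.16 in 1 quasi-likelihood model with a mean per group (28 residual degrees of freedom, prior count 2 for log2 CPM). P-values were adjusted by Benjamini-Hochberg over all genes in the fit, with calls made below 0.05. The SE is the size of the log2 fold change divided by the square root of F. The tests were tested on simulated data. Lower bounds of a fold use a floor of 3 counts over the group, and intervals of count ratios are exact at 95%.

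The 10 genes, the partner lists, the marker lists and the motifs were chosen with earlier results of these data known. Genes named by rule were the 10 members, Irf5, Lyz2 and, for each tested member, the 3 genes with the highest Pearson correlation over group means (mean of at least 1 CPM). Partner genes that were called were named after their values were seen. Alternatives were RLE size factors, all genes with a count, only the libraries compared, DESeq2 1.42.0 (the study's tool) and leaving out each library. The fibroblast covariate (log2 of the marker sum + 0.5) and the label difference over time in Control were added after the data were seen. The protein, high-fat diet and human data of the study were not analysed here.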

Additional observations from a re-analysis of the deposited data

Results flagged for a closer look

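The effect of LPS at 24 h differed from that at 2 h, by the test of the difference over both labels, for 8 of the 9 tested genes, where 46.3% of all genes passed the same edgeR test. The log2 differences (24 h effect minus 2 h effect) were -1.72 ± 0.05 for Igf1 (adjusted p = 2.8e-31), -3.20 ± 0.15 for Pdgfb (8.9e-24), -1.73 ± 0.46 for Csf1 (0.0015), -3.12 ± 0.90 for Hbegf (0.0037), -0.32 ± 0.12 for Vegfa (0.026), 0.64 ± 0.07 for Csf2rb (2.8e-10), 0.19 ± 0.08 for Csf2ra (0.043) and 0.25 ± 0.10 for Csf3r (0.041). The Csf2ra, Csf3r and Vegfa calls were lost when single libraries were left out, for Csf2ra any 1 of 11 (0.14 to 0.19), for Csf3r any 1 of 12 (0.20 to 0.25) and for Vegfa any 1 of 5 (-0.27 to -0.23).

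For palmitate, Igf1 differed between the times by 0.24 ± 0.05 (edgeR adjusted p = 0.0067), where 1.28% of all genes passed, although neither time alone gave a call.

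The difference between libraries labelled KO and WT changed from Control 0 h to Control 2 h for Pdgfb (1.31 ± 0.21, edgeR adjusted p = 5.9e-05), Vegfa (-0.87 ± 0.15, adjusted p = 0.00030) and Csf1r (-0.35 ± 0.10, adjusted p = 0.025), where 4.77% of all genes passed. The Csf1r call was lost without any 1 of 4 libraries, with -0.24 without KO Control 0 h library 3. From Control 0 h to 24 h it changed for Pdgfb (0.88 ± 0.22, edgeR adjusted p = 0.024), where 1.83% of all genes passed, and that call was lost without any 1 of 5 libraries (0.74 to 0.89).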

How the results depend on the processing

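No paired analysis was possible because the columns carry no replicate numbers. Of 225 values of a gene in a comparison, 51 were called, 36 of these kept the call under every alternative, 15 lost it in at least 1, and 0 changed sign. Of the values not called, 14 were called under some alternative, and 66 of the 160 called under none changed sign in at least 1. Counts of called genes that moved by over 1.5 times were as follows. KO against WT at Control 2 h went from 1 to 2 with only the libraries compared and to 0 to 1 without single libraries. At palmitate 2 h it went from 0 to 1 with all genes. At LPS 2 h it went from 0 to 1 with all genes, with DESeq2 and with the fibroblast covariate, and to 0 to 1 without single libraries. Time in Control at 2 h went from 7 to 4 to 8 without single libraries, 4 of which (WT Control 0 h library 3, WT Control 2 h libraries 1 and 2, KO Control 0 h library 1) gave 4. The palmitate effect at 24 h against 2 h went from 1 to 2 with all genes, with only the libraries compared and with DESeq2, and to 1 to 2 without single libraries. The label difference in Control at 24 h against 0 h went from 1 to 3 with all genes and with only the libraries compared, and to 0 to 2 without single libraries. The cause was not tested. Depth limits Hbegf (0 to 22 counts per library) and Csf3 (0 to 16 counts). Outside LPS 2 h it also limits Csf1, which had under 10 counts in some libraries labelled WT and at least 11 in all labelled KO.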
